A study of Mus musculus with 6 samples.

Results

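Tuft cells are rare chemosensory cells of the intestinal epithelium. They sense luminal metabolites and microbes through a taste-type cascade, in which a receptor acts through a G protein and a phospholipase to release calcium and open the cation channel Trpm5. Pou2f3 is the transcription factor without which the lineage does not form, and the cells release the cytokine Il25 and lipid mediators, leukotrienes and prostaglandin D2, that engage type 2 immunity. The 10 genes described here were taken by name as tuft cell genes from the 28752 genes of an RNA sequencing table, and all 10 were listed there. They comprise the sensing genes Trpm5 and Gnat3, the cytoskeletal and signalling genes Dclk1, Avil and Sh2d6, the transcription factors Pou2f3 and Gfi1b, the lipid mediator genes Alox5ap and Hpgds, and Il25.

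The 6 samples were labelled as intestinal crypt stem cells. The study's methods describe Lgr5-positive cells of Lgr5-GFP reporter mice that were grown into crypt-villus organoids, without naming these libraries. Control samples carried the vector in an otherwise wild-type genotype (n = 3), and the others overexpressed the circular RNA circEZH2_005 from an adenovirus (n = 3). Both groups were labelled as exposed to hypoxia/reoxygenation (H/R), for which organoids were kept 4 h at 2% O2 after 72 h of infection. Every sample thus carried a virus or vector and the H/R challenge, and by the general methods the reporter. The study's reporting statement describes its experiments as independent biological replicates, but the labels do not say whether these samples came from separate cultures or animals, and the p-values measure the spread between these samples.

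Libraries held between 71506487 and 79919893 counts, at which 3 counts, the smallest count distinguished here from 0, equal 0.0377 to 0.0419 CPM (the count scaled to a common library size with TMM factors). Such floors cover counting error only. The stem cell markers Lgr5 and Olfm4 were present in each sample, with mean levels of 15.5 and 1758 CPM with vector, beside products of enterocytes, goblet, Paneth and enteroendocrine cells. RNA of leukocyte genes was present as well, and the summed level of 12 leukocyte markers was 76.1, 254 and 96.2 CPM in the vector libraries, in order of replicate, and 617, 486 and 349 CPM in the circEZH2_005 libraries. Vector sample 2 thus had the highest leukocyte level among the vector samples, and each circEZH2_005 sample was above it.

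Of the 10 tuft cell genes, 9 had enough counts to be tested, and 1 of these 9 (11.1%), Hpgds, was higher with circEZH2_005 at an adjusted p under 0.05 (quasi-likelihood test of edgeR, Benjamini-Hochberg adjusted over 18348 genes). None of the 9 was lower. Among all genes tested, 3.67% were called, 2.69% as higher and 0.986% as lower, so a single call among 9 genes says little about the group as a whole. The median log2 fold change was 0.02 for the tuft cell genes tested, with 6 values above and 3 below 0, and 0.00 for all genes tested. Trpm5, Dclk1, Avil, Sh2d6, Pou2f3 and Alox5ap had log2 fold changes between -0.14 and 0.19 whose 95% intervals stayed within a doubling or halving. In bulk RNA, a change in the number of tuft cells and a change in RNA per tuft cell cannot be told apart.

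**Figure D1:**
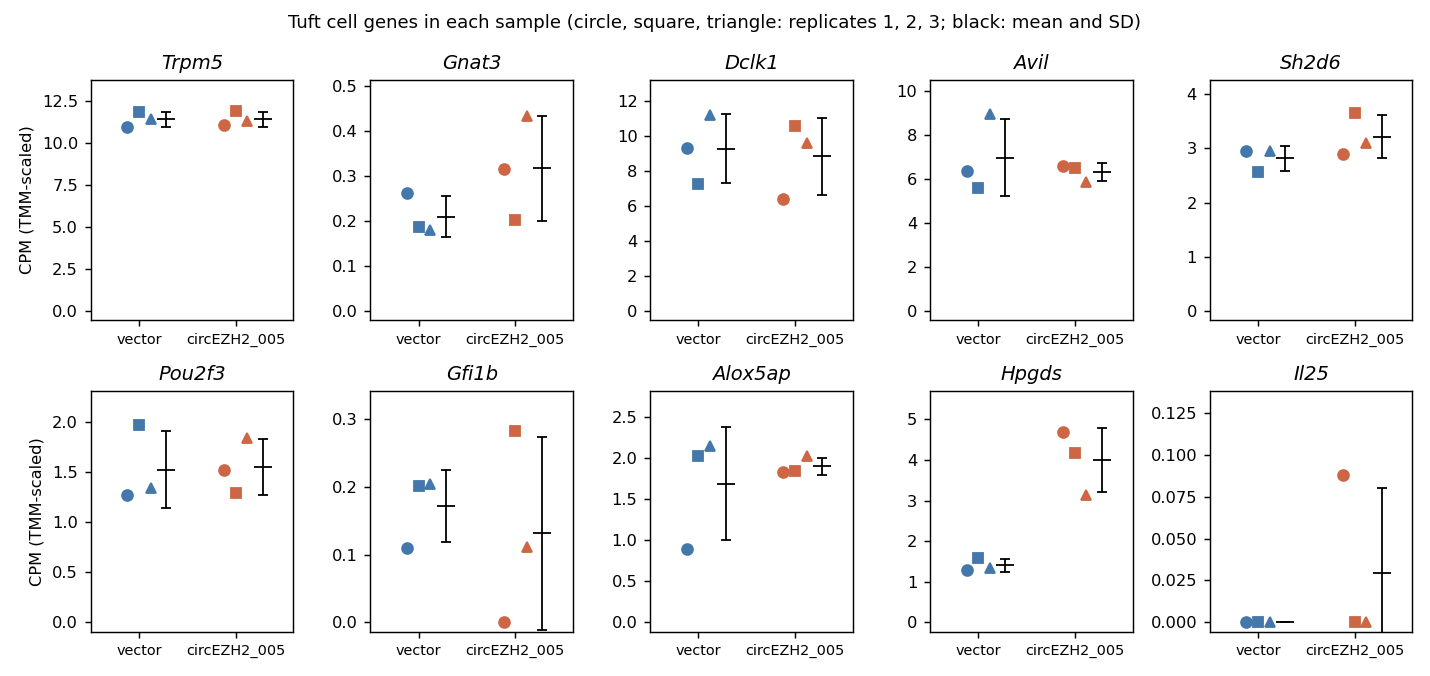
Level of each of the 10 tuft cell genes in CPM (linear axes that differ between panels) in the 3 vector (blue) and 3 circEZH2_005 (orange) samples, with the group mean and SD in black and SD bars that run below 0 for Gfi1b and Il25. Hpgds is the gene whose groups do not overlap, at 1.298 to 1.579 CPM with vector and 3.14 to 4.68 CPM with circEZH2_005.

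Trpm5 encodes the calcium-activated cation channel that depolarizes the tuft cell after taste-type receptors are engaged (ENSMUSG00000009246, chromosome 7, 143069153 to 143087214, minus strand, GRCm38). Its level was 10.99, 11.85 and 11.46 CPM with vector, in order of replicate as for all genes here, and 11.07, 11.95 and 11.33 CPM with circEZH2_005. The samples lay within the same narrow range in both groups, and Trpm5 had the most counts of the 10 genes, with 796 to 897 in each sample. The log2 fold change was 0.00 (standard error 0.11, 95% interval -0.26 to 0.27, edgeR adjusted p = 0.994). A change of more than 1.20-fold upward or to less than 0.834 of the vector level lies outside that interval.

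Gnat3 encodes gustducin, the G protein alpha subunit first known from taste cells (chromosome 5, 17962549 to 18019834). It was detected at 0.262, 0.187 and 0.179 CPM with vector and at 0.314, 0.202 and 0.433 CPM with circEZH2_005, from 14 to 31 counts per sample. The circEZH2_005 samples 1 and 3 were above all vector samples, whereas circEZH2_005 sample 2 was among them. The log2 fold change of 0.59 had an interval from -0.64 to 1.82 (edgeR adjusted p = 0.559), and at this depth and spread no difference could be detected.

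Dclk1 encodes a microtubule-associated kinase and is the histological marker of mouse tuft cells (chromosome 3, 55242364 to 55539068). Its level was 9.31, 7.24 and 11.2 CPM with vector and 6.36, 10.54 and 9.59 CPM with circEZH2_005. The lowest sample was circEZH2_005 sample 1 and the highest vector sample 3, and the groups overlapped. Its log2 fold change was -0.07 (standard error 0.24, interval -0.62 to 0.48, edgeR adjusted p = 0.900).

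Avil, which encodes the actin-regulating protein advillin of the tuft cell's apical bundle (chromosome 10, 127000709 to 127020994), was at 6.38, 5.60 and 8.97 CPM with vector and at 6.62, 6.49 and 5.88 CPM with circEZH2_005. Vector sample 3 stood above the other samples, which lay close together. Its log2 fold change was -0.14 (interval -0.61 to 0.33, edgeR adjusted p = 0.726), and without vector sample 3 the log2 fold change was 0.08. Sh2d6, which encodes a protein with an SH2 domain (chromosome 6, 72513641 to 72521707), was at 2.96, 2.56 and 2.95 CPM with vector and at 2.91, 3.66 and 3.10 CPM with circEZH2_005. The highest values belonged to circEZH2_005 samples 2 and 3, and circEZH2_005 sample 1 fell among the vector samples. The log2 fold change of Sh2d6 was 0.19 (interval -0.25 to 0.64, edgeR adjusted p = 0.603).

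Pou2f3 (chromosome 9, 43123939 to 43210369, minus strand) was at 1.27, 1.97 and 1.34 CPM with vector and at 1.52, 1.29 and 1.84 CPM with circEZH2_005. The highest and the lowest sample were both vector samples. The log2 fold change was 0.02 (standard error 0.28, interval -0.63 to 0.68, edgeR adjusted p = 0.972). Gfi1b, a zinc finger repressor shared by tuft cells and the erythroid and megakaryocytic lineages (chromosome 2, 28609450 to 28621982), had counts of 8, 15 and 16 with vector and of 0, 21 and 8 with circEZH2_005. The circEZH2_005 samples held both the lowest and the highest count. With an interval from -2.96 to 2.18 around a log2 fold change of -0.39 (edgeR adjusted p = 0.872), neither a large rise nor a large fall of Gfi1b could be told from none.

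Il25 (chromosome 14, 54932695 to 54935837), the cytokine by which tuft cells engage type 2 innate lymphoid cells, had 7 counts in circEZH2_005 sample 1 and 0 counts in the other 5 samples. It did not pass the filter on low counts and was not tested. A count of 0 allows up to the 3 counts of the floor, so that levels under about 0.04 CPM were not detectable in these libraries.

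The remaining members make or enable lipid mediators. Alox5ap encodes FLAP, the membrane protein that presents arachidonic acid to 5-lipoxygenase for leukotriene synthesis, and is expressed by leukocytes as well (chromosome 5, 149264767 to 149288153). Its level was 0.898, 2.02 and 2.15 CPM with vector and 1.84, 1.84 and 2.02 CPM with circEZH2_005. Vector sample 1 was low, and the other 5 samples lay within the same range. The log2 fold change was 0.17 (interval -0.63 to 0.97, edgeR adjusted p = 0.816), and it was -0.13 without vector sample 1.

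Hpgds encodes the hematopoietic prostaglandin D synthase, which converts prostaglandin H2 to prostaglandin D2 and is known from mast cells, macrophages and T helper 2 cells as well as from tuft cells (ENSMUSG00000029919, chromosome 6, 65117293 to 65144908, minus strand, GRCm38). It had 94, 118 and 104 counts with vector and 372, 310 and 225 counts with circEZH2_005. Scaled for library size the level was 1.298, 1.579 and 1.329 CPM with vector and 4.68, 4.17 and 3.14 CPM with circEZH2_005. Each circEZH2_005 sample was above each vector sample, a separation that 30.6% of all genes tested showed in one direction or the other, and Hpgds was the 1 tuft cell gene that showed it.

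Hpgds rose 2.85-fold between means of 1.40 ± 0.15 and 4.00 ± 0.78 CPM (SD, n = 3 per group), with a log2 fold change of 1.51 (standard error 0.23, 95% interval 0.98 to 2.04, edgeR adjusted p = 0.0239). It was also the 1 member with a fold change over 2 or under 0.5 and an unadjusted p under 0.05, a rule that 7.56% of all genes tested passed. The call held in 3 of the 6 fits that left out a single sample. The adjusted p by edgeR was 0.0132 without vector sample 2, 0.0402 without circEZH2_005 sample 1 and 0.0416 without circEZH2_005 sample 3. It was 0.111 without vector sample 1, 0.122 without vector sample 3 and 0.0935 without circEZH2_005 sample 2, whereas the log2 fold change stayed between 1.38 and 1.66 whichever sample was left out. Across all 14 alternatives Hpgds was higher with circEZH2_005, and in 8 of the 14 the adjusted p was under 0.05.

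**Figure D2:**
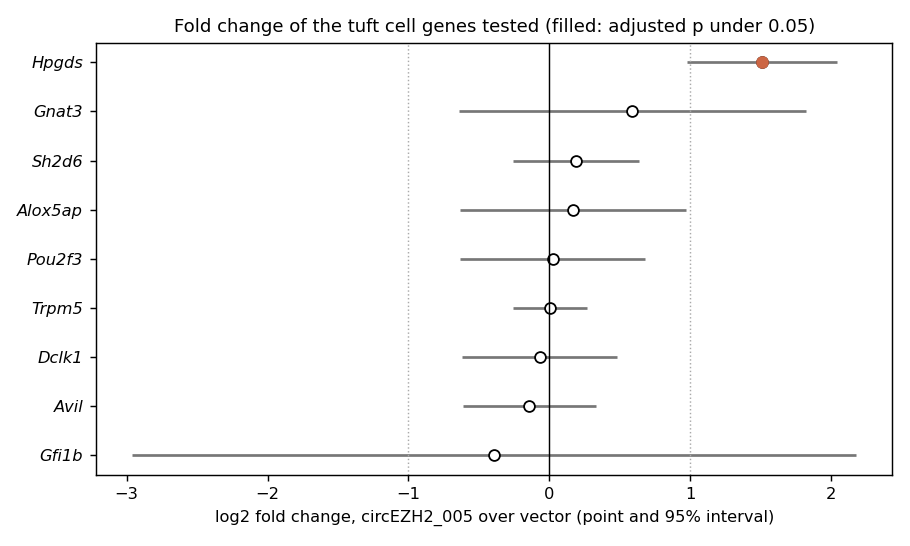
Log2 fold change of the 9 tuft cell genes tested, circEZH2_005 over vector, with 95% intervals (horizontal lines) and a filled point for an adjusted p under 0.05; dotted lines mark a doubling and a halving. Hpgds lies at 1.51, the other 8 genes lie between -0.39 and 0.59, and the widest interval is that of Gfi1b.

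The level of Hpgds was set beside that of the leukocyte genes. The 6 samples had the same order for Hpgds and for the summed leukocyte markers, from vector sample 1 through vector samples 3 and 2 to circEZH2_005 samples 3, 2 and 1, a resemblance seen after the values were known. The sizes differed within the vector samples, where the summed leukocyte level spanned 3.34-fold and Hpgds 1.22-fold, on 94 to 118 counts. The part of that order that separates the groups was seen in 30.6% of all genes tested, in one direction or the other. Between the group means the leukocyte sum was 3.41 times and Hpgds 2.85 times as high with circEZH2_005.

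All 12 leukocyte markers had a log2 fold change above 0, with a median of 1.75, 9 of them had an unadjusted p under 0.05 and 9 did not overlap between the groups. Among all 18348 genes tested, 4346 had an unadjusted p under 0.05 and 30.6% did not overlap. Of the 12 only Itgax, an integrin of dendritic cells and macrophages, was called (log2 fold change 1.86, edgeR adjusted p = 0.0362). Ptprc, which encodes CD45 and was the most abundant of them, went from 44.4 ± 29.9 CPM to 143 ± 40.6 CPM (SD, n = 3 each) with an adjusted p of 0.0756 by edgeR. Mast cell and basophil markers summed to 10.4, 27.9 and 13.1 CPM with vector and to 22.6, 15.0 and 15.7 CPM with circEZH2_005. Vector sample 2 was the highest in that sum. Of the 8 mast cell and basophil markers tested, 0 were called and 0 had an unadjusted p under 0.05. Among 9 myeloid markers 0 were called, with a median log2 fold change of 0.40, and 1 had an unadjusted p under 0.05. By the study's methods, Lgr5-GFP-positive cells were collected by fluorescence-activated sorting before organoid culture, a step described without naming these libraries. The part that leukocyte RNA has in the level of Hpgds was not tested.

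**Figure D3:**
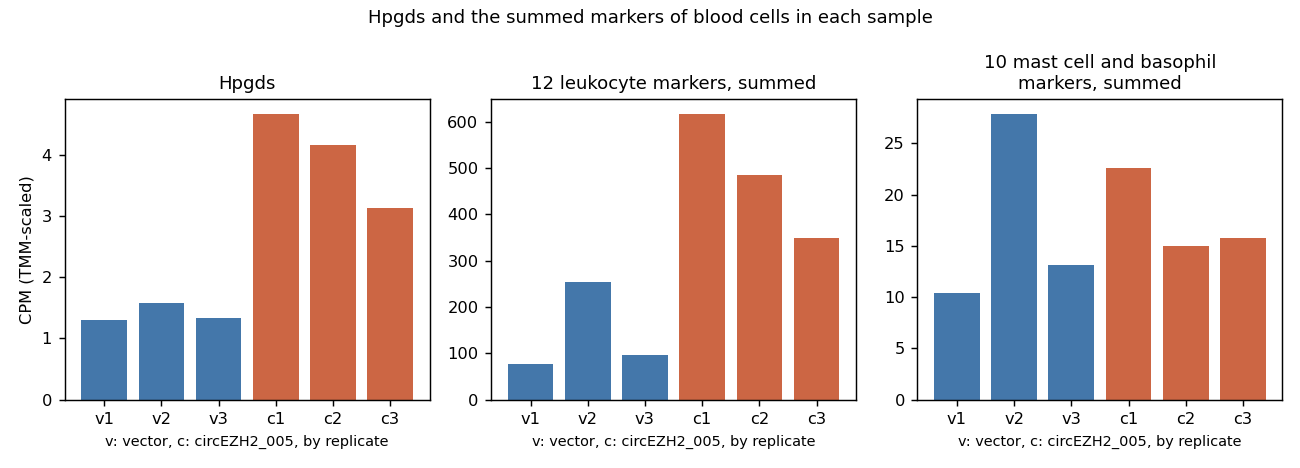
Level of Hpgds (left), of 12 leukocyte markers summed (middle) and of 10 mast cell and basophil markers summed (right) in CPM in vector samples 1 to 3 (v, blue) and circEZH2_005 samples 1 to 3 (c, orange). Hpgds and the leukocyte sum rank the samples alike, and the mast cell sum is highest in vector sample 2, at 27.9 CPM.

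Per length of transcript, in FPKM as the authors computed it, the tuft cell genes were all weakly expressed in these libraries. In vector samples Avil had 1.89 ± 0.48, Trpm5 1.65 ± 0.08 and Sh2d6 1.52 ± 0.11 FPKM (SD, n = 3 each), and their ranges overlapped from one to the next. Alox5ap followed with 1.10 ± 0.46, Dclk1 with 0.556 ± 0.117 and Pou2f3 with 0.454 ± 0.122 FPKM, and neighbours among these overlapped as well. Below them, and without overlap between neighbours, came Hpgds with 0.199 ± 0.026, Gnat3 with 0.139 ± 0.028, Gfi1b with 0.0836 ± 0.0277 and Il25, which was listed at 0 in each vector sample. With circEZH2_005 the FPKM of Hpgds was 0.542 ± 0.133 (SD, n = 3), above the 0.496 ± 0.098 FPKM of Dclk1 and the 0.434 ± 0.080 FPKM of Pou2f3, although the ranges of the 3 genes overlapped.

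The summed level of the 10 genes was 33.5, 33.2 and 39.8 CPM with vector and 35.4, 40.4 and 37.5 CPM with circEZH2_005, and the groups overlapped. The median centred log2 CPM profile of the 9 genes tested was nearly flat, from -0.23 in vector sample 2 to 0.11 in circEZH2_005 sample 3. Among 13342 other genes with a mean of at least 1 CPM, those closest to this profile over the 6 samples were Dag1, Cramp1l and Fbxw5, with root-mean-square distances of 0.032, 0.032 and 0.034 on the log2 scale.

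The promoter windows of the members were searched for ATGCAAA, the core of the octamer word that POU factors such as Pou2f3 bind, on both strands (TTTGCAT on the other). RefSeq windows on GRCm38.p6, from 250 bases before to 50 bases after the transcription start, were held for 7 of the 10 genes. These 7 genes had 8 windows. The letters occurred in 2 of the 8, which belonged to Hpgds and Avil, against 4.63% of all 32851 windows. The sequences around the matches are shown because they belong to the member that rose and to a member whose difference was not detected, with the matching letters in capitals and each window written 5′ to 3′ on the strand of its gene.
Hpgds, chr6:65144886-65144915, minus strand: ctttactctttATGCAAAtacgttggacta
Avil, chr10:127000583-127000612, plus strand: gttttcgctgtTTTGCATaggagcagataa
Avil, chr10:127000679-127000708, plus strand: gagaatgtggttatgATGCAAAcacaagca
The match of Hpgds begins 174 bases before the RefSeq start. However, 23 of the 30 bases shown, with all the matching letters among them, lie in an exon of the longer GENCODE M21 gene model. Those of Avil begin 115 and 15 bases before the start. A match describes the letters only, and the binding of Pou2f3 was not measured here.

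The rest of the sensing cascade was measured through 14 genes chosen as taste-type signalling genes, of which 13 were listed and 8 tested. Of the 8, 1 was called higher and 0 lower, against 2.69% and 0.986% of all genes tested. Their median log2 fold change was 0.65, with 7 values above and 1 below 0. An unadjusted p under 0.05 was reached by 3 of the 8 (4346 of all 18348 genes tested), and 4 did not overlap between the groups (30.6% of all). The 8 include Sucnr1 and Ffar3, which had only 0 to 23 and 8 to 57 counts per sample. The called gene was Itpr2, an inositol trisphosphate receptor that releases calcium from stores and is widely expressed. It rose from 15.8 ± 2.39 to 29.9 ± 6.80 CPM (SD, n = 3 each; log2 fold change 0.92, edgeR adjusted p = 0.0455). The phospholipase Plcb2, which acts between gustducin and calcium release, was at 3.16 ± 0.92 CPM with vector and 6.23 ± 0.49 CPM with circEZH2_005 (log2 fold change 0.98, edgeR adjusted p = 0.0672). The part that leukocyte RNA has in the level of Plcb2 was not tested. Itpr3, the receptor isoform of taste cells, had a log2 fold change of 0.09 (interval -0.12 to 0.30).

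Around Hpgds and Alox5ap, 8 genes of eicosanoid synthesis were tested and 0 were called. Of the 8, 2 had an unadjusted p under 0.05, a level that 4346 of all 18348 genes tested reached. Alox5, the lipoxygenase that FLAP serves, had a log2 fold change of -0.06 (interval -0.58 to 0.46), and Ltc4s, which makes leukotriene C4, one of -0.58 (interval -1.81 to 0.65). Ptgs1, the cyclooxygenase that supplies prostaglandin H2, was at 1.40 ± 0.07 CPM with vector and 2.10 ± 0.48 CPM with circEZH2_005 (edgeR adjusted p = 0.206). Pla2g4a, the phospholipase that releases arachidonic acid, was at 27.1 ± 3.93 and 16.2 ± 3.01 CPM (log2 fold change -0.74, edgeR adjusted p = 0.0573).

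Among the regulators of the lineage 10 genes were listed and tested, under 12 names of which Pou2af2 and Gm684 are other names of 1810046K07Rik and Colca2. Of the 10, 0 were called higher and 2 lower, against 2.69% and 0.986% of all genes tested. Their median log2 fold change was -0.22, with 3 values above and 7 below 0. An unadjusted p under 0.05 was reached by 3 of the 10 (4346 of all 18348 genes tested), and 3 did not overlap between the groups (30.6% of all). Colca2, which encodes a coactivator of Pou2f3, was at 4.13 ± 0.47 CPM with vector and 1.94 ± 0.09 CPM with circEZH2_005 (SD, n = 3 each), and fell by 1.09 in log2 units (edgeR adjusted p = 0.0314). Sox4, a progenitor transcription factor that also acts in tuft and enteroendocrine specification, was at 42.0 ± 8.28 and 20.3 ± 2.36 CPM and fell by 1.05 (edgeR adjusted p = 0.0235). The other coactivator of Pou2f3, listed as 1810046K07Rik, had a log2 fold change of -0.03 (interval -0.69 to 0.63), and the epithelial and immune factor Spib one of 0.31 (interval -0.15 to 0.78). Both falls were in the same direction in all 14 alternatives, and the adjusted p was under 0.05 in 8 of them for Colca2 and in 10 for Sox4. Left out singly, vector samples 1 and 3 and circEZH2_005 samples 2 and 3 each took the adjusted p of both genes over 0.05, to at most 0.136 for Colca2 and 0.104 for Sox4.

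Further tuft cell markers comprised 23 listed genes, with Irag2 as another name of Lrmp, of which 22 were tested. Of the 22, 3 were called higher and 0 lower, against 2.69% and 0.986% of all genes tested. Their median log2 fold change was 0.25, with 13 values above and 9 below 0. An unadjusted p under 0.05 was reached by 10 of the 22 (4346 of all 18348 genes tested), and 11 did not overlap between the groups (30.6% of all). The called genes were Fyb (log2 fold change 1.43, edgeR adjusted p = 0.0338), Lrmp (1.07, edgeR adjusted p = 0.0410) and Espn (1.07, edgeR adjusted p = 0.0496). Fyb is an adaptor protein of T cells and Lrmp a membrane protein of lymphocytes, while Espn bundles actin in microvilli, including those of enterocytes. Vav1 and Inpp5d, which are signalling genes of blood cells, had log2 fold changes of 1.34 and 1.36 without passing the adjustment (edgeR adjusted p = 0.0525 and 0.105). Cd24a, the most abundant gene of the list, Skap2 and Adh1 went the other way, also without passing it. Their log2 fold changes were -0.53, -0.29 and -0.78 (edgeR adjusted p = 0.0750, 0.0673 and 0.0925). The summed leukocyte level was higher in the circEZH2_005 samples, and its part in the values of Fyb and Lrmp was not tested.

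The type 2 circuit was represented by 13 genes, of which 9 were listed and 8 tested. Il5, Il9, Il13 and Il13ra2 were not among the listed genes, and Il4 had between 5 and 13 counts per sample. Of the 8 tested, 2 were called higher and 0 lower, against 2.69% and 0.986% of all genes tested. An unadjusted p under 0.05 was reached by 4 of the 8 (4346 of all 18348 genes tested), and 5 did not overlap between the groups (30.6% of all). The 2 called genes encode receptor chains for interleukins 4 and 13. Il13ra1 rose from 132 ± 0.22 to 258 ± 43.5 CPM (SD, n = 3 each; log2 fold change 0.97, edgeR adjusted p = 0.0171) and Il4ra from 54.6 ± 6.25 to 88.5 ± 16.1 CPM (log2 fold change 0.70, edgeR adjusted p = 0.0468). Stat6, through which these receptors signal, had a log2 fold change of 0.14 (interval -0.06 to 0.35), and Il17rb, the receptor chain for Il25, one of 0.35 (interval -0.18 to 0.88). Across the 14 alternatives the adjusted p was under 0.05 in 12 for Il13ra1, 7 for Il4ra, 6 for Fyb, 5 each for Itpr2 and Lrmp and 4 for Espn.

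**Figure D4:**
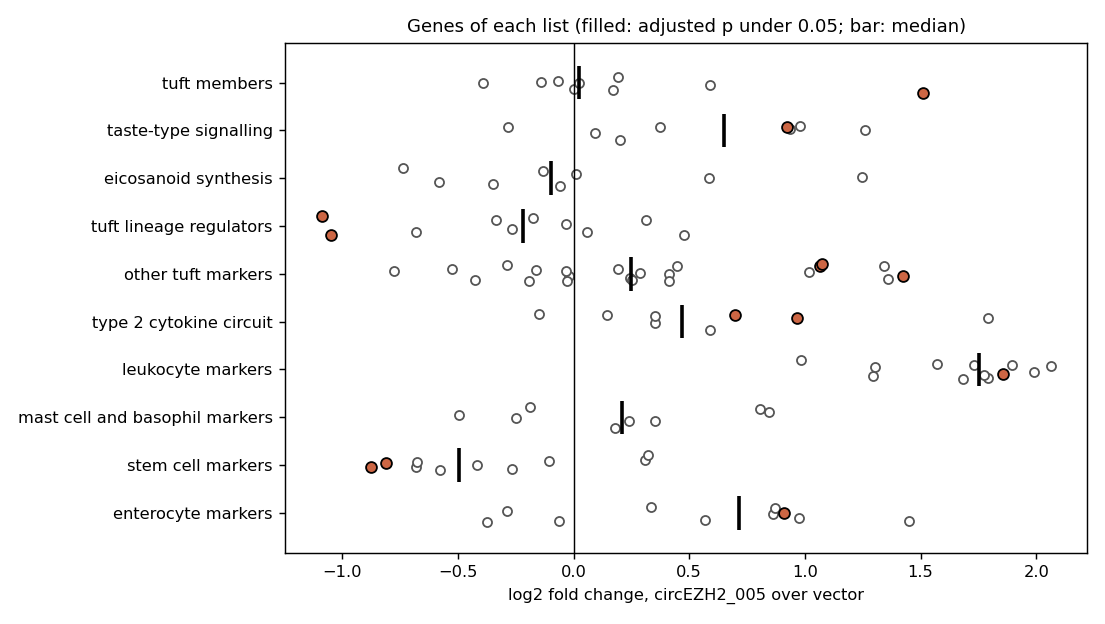
Log2 fold change, circEZH2_005 over vector, of the tested genes of the tuft cell list, of 5 lists around it and of 4 lists of other cell types; each point is a gene, filled where the adjusted p was under 0.05, and bars are medians. The tuft cell genes have a median of 0.02 and the leukocyte markers one of 1.75.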

How the data were processed

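RNA sequencing of 6 samples (3 per group) was taken from a table of 28752 genes. Polyadenylated RNA had been selected with oligo(dT) beads. Per the labels, cutadapt 1.9, HISAT2 2.0.4, StringTie 1.3.4d and DESeq2 were used on mm10; their roles, the counter and the annotation are not given in the sources used here. For each gene and sample the authors deposited an unnormalized count and an FPKM value, normalized for transcript length and library size. Columns named NC were matched by replicate number to vector, since the labels give no other control; 0 columns of sample values were left unused.

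Counts were filtered with filterByExpr, scaled with TMM and tested in edgeR 4.0.16 (R 4.3.3) by quasi-likelihood, with group as the only term. The test was fitted on all 18348 genes kept, with Benjamini-Hochberg adjustment over them. Standard errors were derived from the F statistic, and 95% intervals use the test's t quantile. Alternatives used DESeq2 1.42.0, limma 3.58.1 on log2(FPKM + 1) or log2(FPKM + 0.1) for genes averaging 0.1 FPKM or more, other scalings and filters, a replicate block and each sample left out. The fit was tested on simulated data. Samples held 71506487 to 79919893 counts, so that for most genes the spread between samples, rather than counting, sets the precision.

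The members and gene lists were chosen with earlier results of these data known. Named were every member, the called genes of the other lists (at most 4 a list, by adjusted p), the most abundant gene of each list of another cell type and the 3 genes nearest to the members' profile; others named with their values were chosen after these were seen. Coordinates are those of the table, on GRCm38. Genes on the other strand share 114 of 15296 exon bases of Dclk1, 220 of 6398 of Trpm5, 189 of 1420 of Alox5ap and 165 of 3398 of Avil in GENCODE M21. For Trpm5 the GENCODE M21 model reaches 143094642, beyond the end of 143087214 in the coordinates given here. No source used here says whether counting was stranded.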

Additional observations from a re-analysis of the deposited data

How the results depend on the processing

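No member was called lower in any of the 14 alternatives, and Sh2d6, Gnat3 and Hpgds kept their direction in each alternative that gave them a value. Hpgds was the 1 member ever called. With upper-quartile factors Trpm5 and Pou2f3 had log2 fold changes of -0.0422 and -0.0191. Without a filter 132 genes were called higher and 37 lower over the whole table, and 1 gene each way in the 5 lists around the tuft cell genes (6 higher and 2 lower in the comparison as reported). Requiring a mean of at least 1 CPM gave 287 lower genes in the whole table and 4 in the lists, and left Gnat3 and Gfi1b untested. DESeq2 called 1632 genes higher and 831 lower, with 12 and 7 in the lists. On log2(FPKM + 1) limma called 0 members and put 0 past a fold change of 2, with 251 higher genes in the whole table and 1 in the lists; there the log2 fold change of Hpgds was 0.36 (adjusted p = 0.0672), of Trpm5 -0.054 and of Pou2f3 -0.0177, a scale that understates changes of low genes. On log2(FPKM + 0.1) limma also called 0 members, with 260 higher genes in the whole table and 1 in the lists, and log2 fold changes of 1.08 for Hpgds (adjusted p = 0.0654), -0.0825 for Trpm5 and -0.041 for Pou2f3; Gfi1b was under the limit on FPKM in both.

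With the replicate block 0 members were called higher, with 241 higher and 36 lower genes in the whole table and 2 and 1 in the lists, and the log2 fold change of Hpgds was 1.495 (edgeR adjusted p = 0.0547). The numbers were not taken as pairing the samples, since neither the study's methods nor the labels name a pairing. Deviations of same-numbered samples had correlations of -0.14, -0.02 and 0.04 across genes. With so few samples per group, these correlations cannot decide whether the samples were paired.

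With each sample left out in turn, between 0 and 1 members were called higher; 26 to 1098 genes were called higher and 2 to 334 lower in the whole table, and 0 to 10 and 0 to 2 in the lists. The whole table gave 26 higher and 2 lower without vector sample 1, 1098 and 334 without vector 2, 31 and 2 without vector 3, 62 and 6 without circEZH2_005 sample 2, and 136 and 33 without circEZH2_005 sample 3. The log2 fold changes ranged from -0.22 to 0.12 for Dclk1, -0.0304 to 0.0284 for Trpm5, -0.12 to 0.25 for Pou2f3, -0.13 to 0.37 for Alox5ap, -1.62 to 0.19 for Gfi1b, -0.28 to 0.0759 for Avil and 1.38 to 1.66 for Hpgds. Without circEZH2_005 sample 1 the whole table gave 553 higher and 128 lower genes, and with all 6 samples 493 and 181. Each of these fits that leave a sample out has fewer samples, and the causes of the range in calls were not tested.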

Other observations

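Other epithelial lineages gave called genes in either direction, beside 2.69% of all genes tested called higher and 0.986% called lower. Of 10 stem cell markers, 2 were called lower with circEZH2_005 and 0 higher. The 2 were Lgr5 (log2 fold change -0.88, edgeR adjusted p = 0.0434) and Smoc2 (-0.81, edgeR adjusted p = 0.0203). Olfm4, the most abundant stem cell marker, had a log2 fold change of -0.42 (interval -0.94 to 0.11). Of the 10 values, 8 lay below 0 and 2 above, those of Axin2 (0.31) and Rnf43 (0.32). Of 9 enteroendocrine markers, 1 was called lower, Neurog3, the factor that commits progenitors to that lineage (log2 fold change -1.11, edgeR adjusted p = 0.0394). The most abundant, Chgb, was at 149 ± 5.46 CPM with vector and 127 ± 4.17 CPM with circEZH2_005. Chga had a log2 fold change of 0.36 (edgeR adjusted p = 0.0604). The 9 enteroendocrine markers had a median log2 fold change of 0.15, with 6 values above and 3 below 0. Apoa4, an apolipoprotein, was the 1 of 10 enterocyte markers called, as higher (log2 fold change 0.91, edgeR adjusted p = 0.0279), and Clca1, a mucus protein, the 1 of 7 goblet cell markers (0.76, edgeR adjusted p = 0.0433). The 10 enterocyte markers had a median log2 fold change of 0.72, with 7 values above and 3 below 0. Of these 10, 7 had an unadjusted p under 0.05 (4346 of all 18348 genes tested) and 6 did not overlap between the groups (30.6% of all). Sis, Fcgbp and Lyz1, the most abundant enterocyte, goblet and Paneth cell markers, were not called, at log2 fold changes of -0.29, 0.06 and -0.59.

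Of 8 Paneth cell markers 0 were called by edgeR and 1 had an unadjusted p under 0.05, a level that 4346 of all 18348 genes tested reached. Each of the 8 had a log2 fold change below 0, with a median of -0.59. Of 8 erythroid and megakaryocyte markers, which share Gfi1b with tuft cells, 4 had enough counts to be tested and 0 were called by edgeR, 2 having an unadjusted p under 0.05; Hbb-bs, the most abundant, had a log2 fold change of -1.07 (edgeR adjusted p = 0.132). The most abundant myeloid and mast cell markers, Itgam and Mcpt1, had log2 fold changes of 0.34 and 0.18.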
